A study of Oryza sativa with 27 samples.

Results

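Carrier-treated cultures were compared with themselves over the first part of the time course: 3 libraries from rice suspension cells taken 90 min after DMSO was added, against 3 taken 30 min after it. These 6 libraries, of 27 in the series, were chosen by their labels alone, and libraries with the same replicate number were taken as a pair. All groups were suspension cells of Oryza sativa, cultivar Tsukinohikari, in cultures 5 days old, a cell population grown in liquid medium outside the plant. DMSO is the solvent in which the safeners of the study, metcamifen and cyprosulfamide (5 µM), were dissolved, so every group here received it; safeners are compounds given with a herbicide to lessen its injury to a crop. The DMSO libraries at 240 min, and the cyprosulfamide and metcamifen libraries at 30, 90 and 240 min, were used for comparison, with 3 biological replicates in each group. No cultures without DMSO and none at the time of dosing were analysed here, so elapsed time, handling and the solvent cannot be told apart.

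The carrier libraries are the baseline against which a safener is read, and a baseline can itself move. Transcript levels in plant cells shift within minutes to hours of handling, of a change of medium or of the daily cycle, and transcripts with short lifetimes follow such shifts fastest. A rise in a bulk culture can come from more transcript per cell or from more cells of one kind, which cannot be told apart here. Loci are given by the identifiers of the deposited table, in which the digits after "Os" give the chromosome. The table does not pair them with gene names, and 0 of its 46102 identifiers matched the rice gene table that was at hand, so no gene name, function or marker of cell type is given, and the labelled cell type could not be checked.

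The 6 libraries held 16716222 to 19455668 counts each. Over all 27 libraries, with the safener cultures used for comparison, the totals ran more widely, from 5516373 to 43747251. Loci with enough counts for a test numbered 26388 of the 45866 with identifiers that begin with LOC_Os. Along the first principal component of all 27 libraries (21.1% of the variance), DMSO replicate 1 stood apart, at 32.6 at 90 min and 23.8 at 30 min, while DMSO replicates 2 and 3 lay between -44.8 and -17.5 at the same times. Between the times, same-numbered DMSO libraries deviated together from their group means, with a correlation across loci of 0.754 for replicate 1, 0.422 for replicate 2 and 0.544 for replicate 3.

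Between 90 and 30 min, 453 loci changed, 1.72% of those tested: 145 were higher at 90 min (0.549%) and 308 were lower (1.17%). These calls had an adjusted p under 0.05 in edgeR's quasi-likelihood test with the pairs kept together. Most changes were small. The median log2 fold change was 0.51 among the raised loci and -0.51 among the lowered ones, where all tested loci had a median of -0.0048. A change of at least 2-fold was found at 21 raised and 29 lowered loci, and one of at least 1.5-fold at 60 and 122. The count moved with the libraries used. It was 233, 242 and 171 without DMSO replicate 1, 2 or 3 at 90 min, and 163, 386 and 216 without replicate 1, 2 or 3 at 30 min. With one replicate number left out at every time, it was 148 without replicate 1, 259 without replicate 2 and 156 without replicate 3. Taken as unpaired groups, the libraries gave 64 calls, 36 higher and 28 lower, all among the 453.

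**Figure D1:**
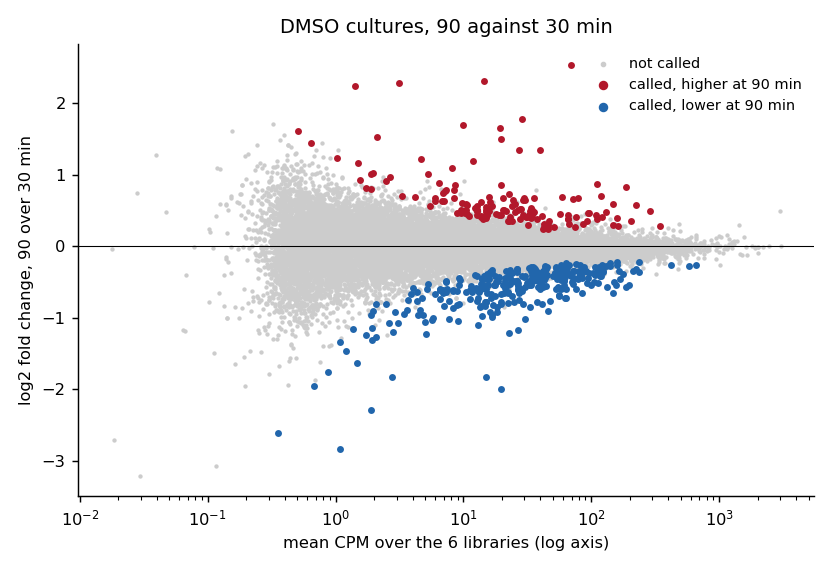
Each point is a locus in DMSO cultures, with its mean CPM over the 6 libraries on a log axis and the log2 fold change of 90 over 30 min on the vertical axis. The 145 raised (red) and 308 lowered (blue) loci lie mostly within 2-fold of no change, with single loci reaching 2.54 and -2.83.

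Loci are named below if they were called and averaged at least 1 CPM over the libraries of both times. They also had to move the same way in all 3 pairs, with no overlap between the times. These conditions were met by 121 raised and 150 lowered loci, of which the 2 largest rises and the 2 largest falls are given. The shared direction and the lack of overlap thus hold for every named locus by the rule. A locus can pass 1 CPM through the time at which it is high alone. The largest rise was at LOC_Os07g32570, a locus of chromosome 7. It stood at 120.48, 103.96 and 129.97 CPM in DMSO replicates 1, 2 and 3 at 90 min, against 16.29, 16.94 and 28.32 CPM at 30 min (CPM is the locus's count scaled to a common library total, after TMM adjustment). Every library at 90 min lay far above every library at 30 min. The means were 118.13 ± 13.16 CPM at 90 min and 20.52 ± 6.77 CPM at 30 min (SD over 3 libraries). On the log2 scale the fitted rise was 2.54 (SE 0.158), with an adjusted p = 2.59e-09 in edgeR's test. By 240 min the level was low again, at 24.29, 28.08 and 21.4 CPM. On the same scale 240 min differed from 90 min by -2.25 (SE 0.154), with an adjusted p = 9.27e-09 in edgeR's test, a fall that shares the 90 min libraries with the rise before it.

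LOC_Os02g03710, of chromosome 2, had the second largest rise and the same shape. It had 23.35, 21.06 and 28.29 CPM in the libraries at 90 min, against 3.85, 4.75 and 6.18 CPM in those at 30 min. The fitted log2 change was 2.31 (SE 0.186, edgeR adjusted p = 1.46e-07). At 240 min it had 7.38, 10.89 and 7.34 CPM, above all 3 libraries of 30 min and below all 3 of 90 min. The fitted log2 change of 240 over 90 min was -1.50 (SE 0.17; edgeR adjusted p = 8.9e-06).

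The largest falls were at 2 loci of chromosome 4 whose identifiers are close in number, LOC_Os04g54230 and LOC_Os04g54310. LOC_Os04g54230 had 0.269, 0.18 and 0.332 CPM in replicates 1, 2 and 3 at 90 min, against 1.75, 1.02 and 2.94 CPM at 30 min. These levels rest on 14 counts in all at 90 min and 101 at 30 min. It averaged 0.26 CPM at 90 min and 1.9 CPM at 30 min, so it met the 1 CPM of the naming rule through 30 min alone. The fitted log2 change was -2.83 (SE 0.395, edgeR adjusted p = 0.00022). Its level at 240 min was 0.138, 0.146 and 0.448 CPM. The fitted log2 change of 240 over 90 min was -0.12 (edgeR adjusted p = 0.955); with 14 counts in all at each time, whether the level moved cannot be said.

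LOC_Os04g54310 had 0.646, 0.48 and 0.774 CPM at 90 min (34 counts in all), against 4.16, 1.74 and 3.47 CPM at 30 min (169 counts). It averaged 0.633 CPM at 90 min and 3.13 CPM at 30 min, so it too met the 1 CPM of the naming rule through 30 min. The fitted log2 change was -2.29 (SE 0.301, edgeR adjusted p = 0.000113). At 240 min it had 0.599, 0.244 and 0.672 CPM. Whether reads that match several loci were counted is not given in the sources used here, and whether these loci share reads was not tested.

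**Figure D2:**
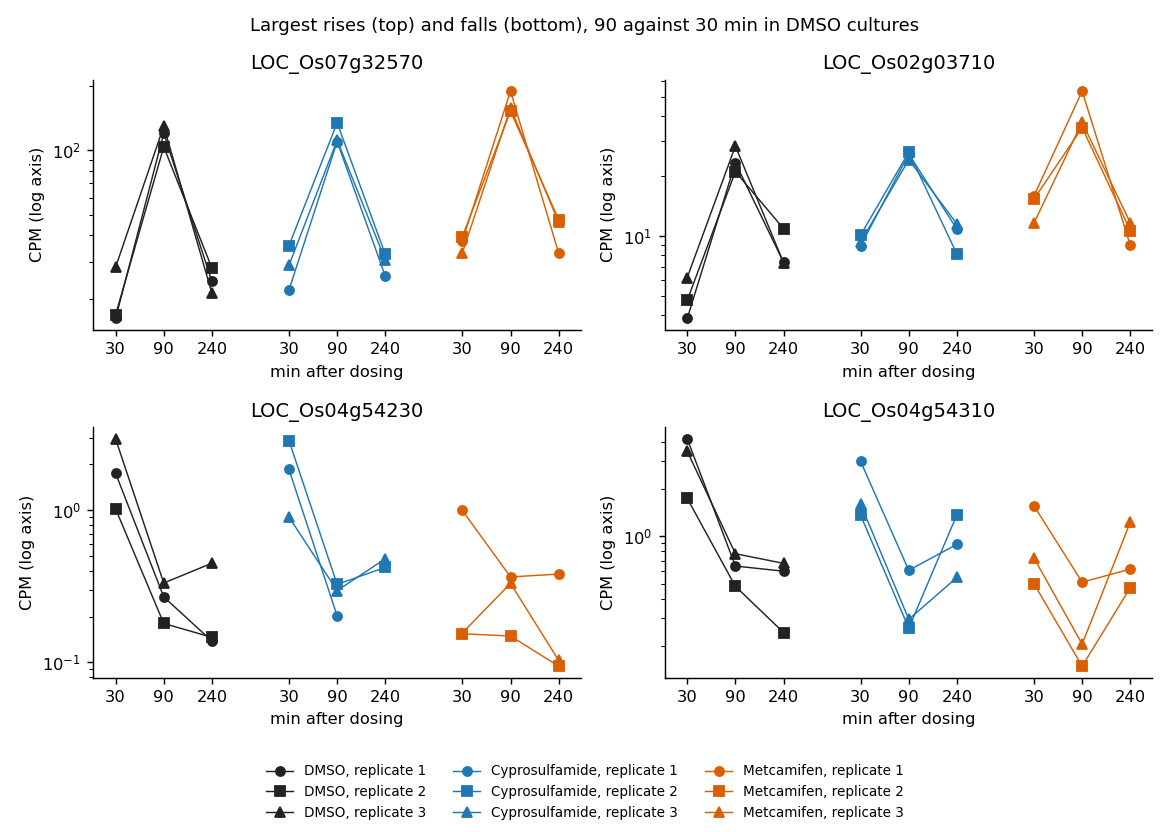
CPM per library (log axis) of the 2 loci with the largest rises (top) and the 2 with the largest falls (bottom) between 90 and 30 min in DMSO cultures, at 30, 90 and 240 min, with lines joining libraries of one replicate number. LOC_Os07g32570 and LOC_Os02g03710 were highest at 90 min in DMSO, cyprosulfamide and metcamifen cultures, while LOC_Os04g54230 was already low at 30 min in 2 of 3 metcamifen libraries; its value of 0 in one cyprosulfamide library at 240 min is not drawn.

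Of the raised loci, 123 of 145 had every library of 90 min above every library of 30 min, and of the lowered loci 151 of 308 had every library of 90 min below. Over all tested loci 10.2% did not overlap between the times (5.37% higher at 90 min, 4.8% lower). The raised loci took 0.711%, 0.67% and 0.678% of counts in DMSO replicates 1, 2 and 3 at 90 min, against 0.47%, 0.477% and 0.474% at 30 min. These shares were nearly equal within each time. The lowered loci took 1%, 1.35% and 1.4% at 90 min, against 1.34%, 1.68% and 1.98% at 30 min, so that replicate 1 at 30 min stood no higher than replicates 2 and 3 at 90 min. The loci were chosen in these libraries, and the shares only describe them.

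The same shows in the median level of each set relative to the mean of the DMSO libraries at 30 min. For the lowered loci it was -0.87, -0.33 and -0.31 log2 units in replicates 1, 2 and 3 at 90 min, against -0.28, 0.05 and 0.27 at 30 min. The gap between replicate 1 and the others was thus about the size of the fall within a pair, which had a median of -0.54, -0.37 and -0.62 log2 units in pairs 1, 2 and 3. Of the 308 lowered loci, 307 were lower at 90 min in pair 1 and 308 in pairs 2 and 3, beside 12940, 13866 and 14117 of all 26388 tested loci; the paired test that chose the loci fixes most of this. For the raised loci, the median rise within a pair was 0.63, 0.50 and 0.46 log2 units. Of the 145, 145, 145 and 143 were higher at 90 min, beside 13448, 12515 and 12264 of all 26388 tested loci. The choice by the paired test fixes most of this too. The level of the lowered loci moved with the replicate number, whose part in their calls was not tested; unpaired, 28 loci were called lower.

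Loci called without one replicate number were then read in the pair that had been left out. Without replicate 1, 44 loci were called higher at 90 min, and 44 of them were higher in pair 1, with a median of 0.67 log2 units; of 104 called lower, 101 were lower there, with a median of -0.57. Without replicate 2, the same held for 62 of 62 and 193 of 197 loci, with medians of 0.56 and -0.34. In pair 3, 70 of 84 loci called higher without it were higher and 71 of 72 called lower were lower, with medians of 0.33 and -0.71. Over all tested loci, 46.5% to 51% were higher and 49% to 53.5% lower in the pair left out. Pair 3 therefore carried the raised loci least evenly, at 83.3% in the called direction.

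The called loci spanned a wide range of levels. Their median was 20.8 CPM for the raised and 27 CPM for the lowered loci, next to 12.4 CPM for all tested loci. Calls made up 0.15% of loci under 1 CPM, 1.08% of those from 1 to 10 CPM, 2.54% of those from 10 to 100 CPM and 2.1% of those at 100 CPM or more. No called locus was without counts in either group. By the chromosome in the identifier, the raised share ran from 0.38% of tested loci on chromosome 12 to 0.781% on chromosome 1, and the lowered share from 0.759% on chromosome 12 to 1.67% on chromosome 1. Among the lowered loci there were 16 pairs of direct neighbours in identifier order, so 5.19% of lowered loci were followed by another, beside a background of 1.17%. Among the raised loci there were 3 such pairs (2.07%, beside 0.549%). Neighbours can be overlapping or near-identical copies that share reads, and this was not tested.

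Cyprosulfamide cultures passed through the same interval in libraries that did not enter the DMSO fold changes, though all 27 libraries shared one filter and one estimate of dispersion. With the 9 DMSO libraries alone, 424 loci were called in DMSO cultures, 360 of them among the 453. In cyprosulfamide cultures, 521 loci changed between 90 and 30 min (1.97% of those tested), 202 higher (0.765%) and 319 lower (1.21%). Without cyprosulfamide replicate 2 there were 239 calls and without replicate 3 there were 897. Of the 145 loci raised in DMSO cultures, 74 were also raised under cyprosulfamide and 0 were lowered. Of the 308 lowered in DMSO, 118 were also lowered and 0 were raised. The shared loci are 51% of the DMSO raised list and 36.6% of the cyprosulfamide one, and 38.3% and 37% of the lowered lists. The fitted change had the same sign under cyprosulfamide at 142 of 145 raised and 301 of 308 lowered loci, with a median of 0.38 and -0.34 log2 units. Over all tested loci the median was 0.004, with 13435 of 26388 fitted higher.

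Same-numbered cyprosulfamide libraries of the 2 times correlated at 0.412, 0.262 and -0.0481, so their numbers do not all act as pairs. Metcamifen ones correlated at 0.693, 0.403 and 0.361. Metcamifen replicate 3 at 90 min correlated more with replicate 2 at 30 min, at 0.435. With pairs kept only in DMSO and metcamifen cultures, a setting chosen after seeing the data, DMSO cultures gave 211 calls and cyprosulfamide cultures 185, with 39 of 91 raised and 40 of 120 lowered DMSO loci shared. Without any pairing, 22 of 36 raised and 6 of 28 lowered loci were shared. DMSO and cyprosulfamide libraries of replicate 1 also correlated with each other, at 0.586 at 90 min and 0.532 at 30 min, and those of replicates 2 and 3 at 0.0453 to 0.0803, so the treatments are separate libraries but not wholly separate in their spread. For the lowered loci, cyprosulfamide replicate 1 stood low as DMSO replicate 1 did, at -0.77 log2 units at 90 min against -0.41 and -0.47 in replicates 2 and 3; the part of this in the shared calls was not tested. The 74 shared raised loci were of 145 raised in DMSO cultures, and both numbers moved with the libraries used. Without DMSO replicate 1, 2 or 3 at 90 min they became 43 of 64, 40 of 66 and 43 of 85. Without replicate 1 or 2 at 30 min they became 37 of 52 and 48 of 93. Without DMSO replicate number 1, 2 or 3 they became 34 of 44, 35 of 62 and 43 of 84. Without cyprosulfamide replicate 1 they became 38 of 136. The 118 shared lowered loci, of 308 lowered in DMSO cultures, became 54 of 86 without DMSO replicate 3 at 90 min. Without replicate 1 or 3 at 30 min they became 59 of 111 and 69 of 118. Without DMSO replicate number 1 or 3 they became 58 of 104 and 49 of 72, and without cyprosulfamide replicate 1 50 of 298.

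A direct test of the difference between the DMSO and cyprosulfamide changes gave 0 calls, by edgeR's quasi-likelihood test and by DESeq2 alike. Of 26388 tested loci, 1297 had an unadjusted p under 0.05 in edgeR's test, where a share of about 0.05 is expected if no locus differs. When the low-count filter was dropped, 107 loci were called. For LOC_Os07g32570 the change under cyprosulfamide differed from that in DMSO by -0.49 log2 units (SE 0.214), and for LOC_Os02g03710 by -0.88 (SE 0.25), each with an adjusted p = 0.933 in edgeR's test. LOC_Os04g54310 differed by -0.01 and LOC_Os04g54230 by 0.02. The absence of calls does not show that the changes were equal.

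By the same rule, the locus with the second largest rise under cyprosulfamide, LOC_Os03g06970, also rose in DMSO cultures. It averaged 2.37 ± 0.58 CPM at 90 min and 0.491 ± 0.0429 CPM at 30 min in DMSO (SD over 3 libraries), a fitted log2 change of 2.25 (SE 0.337; edgeR adjusted p = 0.000535). Under cyprosulfamide it averaged 2.36 ± 0.55 CPM at 90 min and 0.704 ± 0.103 CPM at 30 min, a fitted log2 change of 1.76 (SE 0.296; edgeR adjusted p = 0.00247). The largest rise and the 2 largest falls under cyprosulfamide were at the loci already named for DMSO, LOC_Os07g32570, LOC_Os04g54230 and LOC_Os04g54310, with log2 fold changes of 2.05, -2.81 and -2.30.

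**Figure D3:**
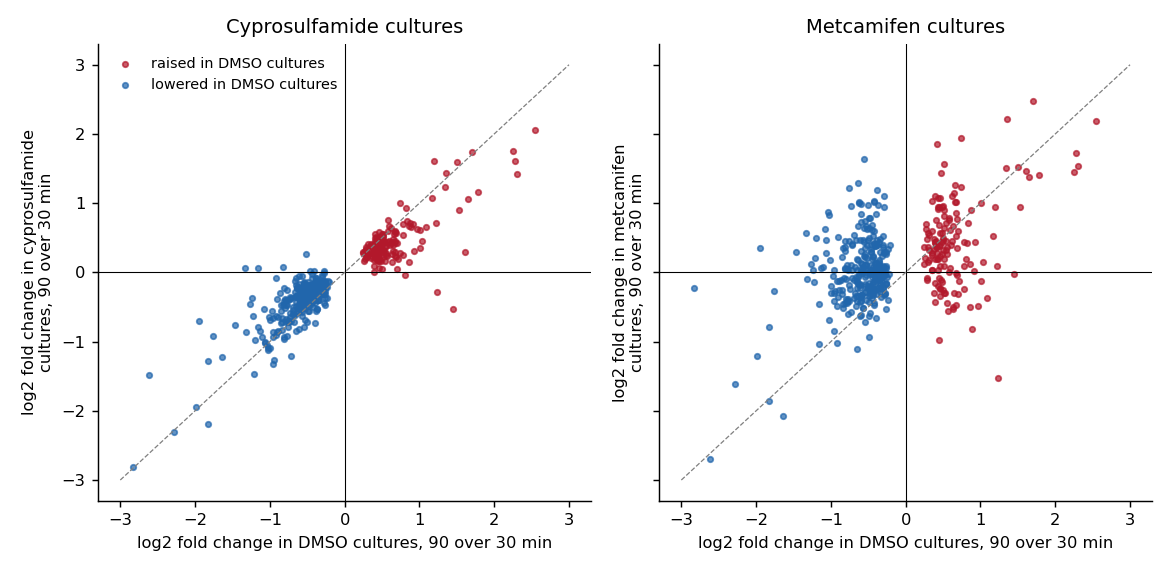
Log2 fold change of 90 over 30 min in cyprosulfamide (left) and metcamifen (right) cultures against that in DMSO cultures, for the 145 loci raised (red) and 308 lowered (blue) in DMSO; the dashed line marks equal change. Under cyprosulfamide 142 raised and 301 lowered loci keep the sign they have in DMSO, while under metcamifen the lowered loci scatter on either side of 0, with a median of -0.01.

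Under metcamifen the loci raised in DMSO had a median rise, and the loci lowered in DMSO had a median change near 0. The lowered set stood at -0.35 log2 units at 90 min and -0.34 at 30 min in metcamifen cultures, relative to DMSO at 30 min. At 30 min its level was -0.06, -0.45 and -0.47 in metcamifen replicates 1, 2 and 3. In cyprosulfamide cultures it was -0.19 at 30 min. The DMSO libraries at 30 min are the reference here and also helped to choose these loci, so these levels are a description. Same-numbered DMSO and metcamifen libraries deviated in opposite directions, with correlations of -0.771, -0.292 and -0.565 for replicates 1, 2 and 3 at 90 min and -0.445, -0.298 and -0.367 at 30 min. On the first principal component metcamifen replicate 1 lay at -44.6 at 90 min and -22.1 at 30 min, opposite in sign to DMSO replicate 1. The part of these deviations in the metcamifen values was not tested. Metcamifen cultures gave 2740 calls between 90 and 30 min (10.4% of tested loci), 2011 higher (7.62%) and 729 lower (2.76%). There were 1814, 1454 and 1615 calls without metcamifen replicate 1, 2 or 3, and 1414 without pairing. Of the 145 loci raised in DMSO cultures, 79 (54.5%) were also raised under metcamifen and 11 (7.59%) were lowered; the median change was 0.39 log2 units. Of the 308 lowered in DMSO, 50 (16.2%) were also lowered and 66 (21.4%) were raised, and the median change was -0.01. Raised in DMSO, cyprosulfamide and metcamifen cultures alike were 50 loci, and lowered in all of them were 29. The order of the 66 and the 50 turned with the pairing: 20 were raised and 26 also lowered with pairs only in DMSO and metcamifen cultures, and 6 were raised and 8 also lowered without pairing.

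All 4 of these shared counts moved with the libraries used, and so did the DMSO lists behind them. Without DMSO replicate 1, 2 or 3 at 90 min those lists held 64, 66 and 85 raised and 169, 176 and 86 lowered loci. Without replicate 1 or 3 at 30 min they held 52 and 98 raised and 111 and 118 lowered loci. Without DMSO replicate number 1, 2 or 3 they held 44, 62 and 84 raised and 104, 197 and 72 lowered loci. Without metcamifen replicate 1, 2 or 3 they held 128, 121 and 117 raised and 262, 226 and 237 lowered loci. Without DMSO replicate 1, 2 or 3 at 90 min, the 66 became 37, 42 and 19, the 79 became 41, 40 and 46, the 50 became 31, 30 and 24, and the 11 became 4, 7 and 6. Without DMSO replicate 1 at 30 min they became 27, 38, 25 and 2 in the same order, and without replicate 3 at 30 min the 66 became 32 and the 50 became 27. Without DMSO replicate number 1 they became 23, 32, 23 and 2; without number 2 the 79 became 36; and without number 3 the 66 became 19, the 79 became 41 and the 50 became 18. Without metcamifen replicate 1 the 50 became 24 and the 11 became 7; without replicate 2 the 66, 50 and 11 became 37, 17 and 3; and without replicate 3 the 66, 79, 50 and 11 became 37, 52, 19 and 3. For the loci raised in DMSO, those also raised outnumbered those lowered in each setting run. For the loci lowered in DMSO the order turned: without DMSO replicate 3 at 90 min, 19 were raised under metcamifen and 24 also lowered, and without DMSO replicate number 1 there were 23 of each.

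The change over the interval differed between metcamifen and DMSO cultures at 1484 loci (5.62% of those tested), in a test that uses the DMSO libraries themselves, and at 881 and 969 without metcamifen replicate 2 or 3. There were 456 such loci without pairing and 969 with pairs only in DMSO and metcamifen cultures. One of the loci with the largest falls was among them. LOC_Os04g54230 had 0.364, 0.149 and 0.33 CPM under metcamifen at 90 min and 0.995, 0.154 and 0.156 CPM at 30 min. Metcamifen replicates 2 and 3 were thus already below the DMSO libraries of 90 min at 30 min. The change differed from that in DMSO by 2.61 log2 units (SE 0.741; edgeR adjusted p = 0.0376), on 15 counts at 90 min and 14 at 30 min under metcamifen. LOC_Os07g32570 rose under metcamifen too, to 167.02 ± 19.94 CPM at 90 min, against 36.72 ± 3.28 CPM at 30 min (SD over 3 libraries), a fitted log2 change of 2.19 (SE 0.153; edgeR adjusted p = 3.77e-10), as did LOC_Os02g03710, by 1.54 (SE 0.163; edgeR adjusted p = 2.81e-07). LOC_Os04g54310 fell, with a fitted log2 change of -1.61 (SE 0.471, edgeR adjusted p = 0.0282), on 14 counts at 90 min and 38 at 30 min under metcamifen. It averaged 0.289 CPM at 90 min and 0.929 CPM at 30 min there. In DMSO cultures it averaged 0.633 CPM at 90 min and 3.13 CPM at 30 min, so its metcamifen level at 30 min was also below that of DMSO.

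Of the 4 loci named by the same rule for metcamifen, 1 was also called in DMSO cultures. That was LOC_Os11g31060, which had 0.716 ± 0.207 CPM at 90 min and 2.21 ± 0.311 CPM at 30 min in DMSO (SD over 3 libraries), a fitted log2 change of -1.64 (SE 0.299; edgeR adjusted p = 0.00345). Under metcamifen it had 3.91 ± 0.604 CPM at 90 min and 16.23 ± 1.87 CPM at 30 min. LOC_Os03g62230, the largest fall under metcamifen, had 1.7 ± 0.821 CPM at 90 min and 2.1 ± 0.808 CPM at 30 min in DMSO, a fitted log2 change of -0.31 (SE 0.252; edgeR adjusted p = 0.786). LOC_Os06g34530, the largest rise under metcamifen, had 3 counts in all at 90 min and 1 at 30 min in DMSO, too few for a comparison. LOC_Os06g44010 had 0.798 ± 0.678 CPM at 90 min and 0.996 ± 0.7 CPM at 30 min in DMSO, a fitted log2 change of -0.36 (SE 0.345; edgeR adjusted p = 0.839).

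The later course of both sets was also read in the safener cultures, whose libraries entered the choice of loci through the shared filter and dispersion but not through the fold change. Under cyprosulfamide, the raised loci changed by a median of -0.13 log2 units from 90 to 240 min, 101 of 145 (69.7%) being lower at 240 min. The lowered loci changed by a median of -0.10, 190 of 308 (61.7%) being lower still, while 49.9% of all tested loci were lower. The raised loci thus lay partway back toward their level at 30 min, and the lowered loci did not. Under metcamifen the raised loci changed by -0.04 (77 of 145 lower) and the lowered loci by -0.36 (254 of 308 lower, 82.5%, next to 51.3% of all tested loci). In DMSO cultures the medians relative to 30 min were 0.51 at 90 min and 0.36 at 240 min for the raised loci, and -0.51 and -0.45 for the lowered ones; the loci were chosen on the values at 90 and 30 min, so these medians are a description. Between 240 and 90 min, 1011 loci changed in DMSO cultures (3.83% of those tested), and 595, 433 and 425 without DMSO replicate number 1, 2 or 3.

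**Figure D4:**
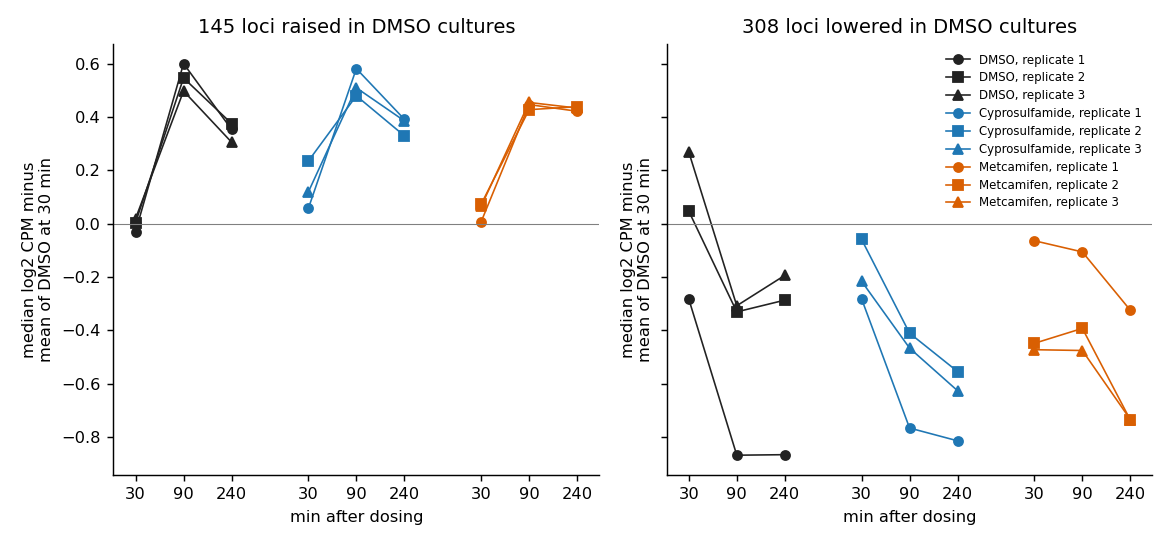
Median log2 CPM of the 145 raised (left) and 308 lowered (right) loci in each library, relative to the mean of the DMSO libraries at 30 min, for DMSO, cyprosulfamide and metcamifen cultures at 30, 90 and 240 min, with lines joining replicate numbers. The raised loci lie between 0.43 and 0.60 in every library at 90 min, whereas for the lowered loci replicate 1 stands apart at 90 min in each treatment, low in DMSO (-0.87) and cyprosulfamide (-0.77) cultures and high in metcamifen cultures (-0.11).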

How the data were processed

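PolyA RNA of 27 libraries was measured by sequencing. The authors deposited a table of raw counts per locus and library, whole numbers whose totals differ between libraries. GSNAP and edgeR were used upstream, per the submitters' processing notes. For the build, the annotation, strand and reads matching several loci, the answer is not given in the sources used here. Rows that do not begin with LOC_Os (236, 0.093% to 0.132% of counts) were left out. Loci were filtered with filterByExpr (minimum count 10, minimum total 15) and scaled by TMM. One edgeR 4.0.16 quasi-likelihood model over all 27 libraries, in R 4.3.3, held treatment-specific times and a block for each treatment and replicate number (12 residual degrees of freedom). P-values are two-sided, with Benjamini-Hochberg adjustment over 26388 loci and a threshold of 0.05. The standard error is the size of the fitted log2 change over the square root of F. It is unreliable near a change of 0 and is left out for the changes nearest to 0. Log2 CPM for medians and correlations used a prior count of 2, and correlations the 15502 loci with a mean above 3. The model was also run on counts simulated from its own fitted values and dispersions. That run keeps the blocks, so it cannot check the pairing.

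The same replicate number was taken as a pair by the rule of this comparison, and the main model blocked every treatment that way. In DMSO cultures the deviations of same-numbered libraries correlated positively at all 3 numbers. DMSO replicate 2 at 90 min correlated equally with replicates 2 and 3 at 30 min (0.422). Metcamifen replicate 3 at 90 min correlated more with replicate 2 at 30 min (0.435) than with replicate 3 (0.361). For cyprosulfamide number 3 the correlation was -0.0481. The labels do not say what a number shares. The series' design text calls the replicates biological. Named loci are, per treatment, the 2 largest rises and 2 largest falls among calls with a mean of at least 1 CPM, the same direction in all pairs and no overlap. Gene lists by function could not be built, as 0 identifiers matched. The libraries, tests and naming rule were chosen with earlier results of these data known. Alternatives were DESeq2 1.42.0, its size factors in edgeR, no filter, no or partial pairing, fewer libraries and all rows.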

Additional observations from a re-analysis of the deposited data

Results flagged for a closer look

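Between metcamifen and DMSO cultures, the change from 30 to 90 min differed at 1484 loci in the direct test of the difference (edgeR's quasi-likelihood test, adjusted p under 0.05). Without pairing there were 456, and with pairs only in DMSO and metcamifen cultures 969. LOC_Os04g54230 was one of these, with a change under metcamifen that was 2.61 log2 units more positive than in DMSO (SE 0.741, adjusted p = 0.0376, edgeR). That value rests on 15 and 14 counts at 90 and 30 min under metcamifen, and on 14 and 101 counts in DMSO. The locus was named for its fall in the DMSO libraries, which the test of the difference also uses.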

How the results depend on the processing

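Neither DESeq2 size factors nor DESeq2 moved the calls between 90 and 30 min in DMSO cultures by more than 1.5 times. They gave 468 and 469 in place of 453, with 452 and 397 of the 453 loci among them. The 6 libraries alone (609), the 9 DMSO libraries alone (424) and all rows (441) also stayed within 1.5 times. Of the 453 loci, 410, 360 and 435 were among these calls. Without the low-count filter there were 776 calls. Without a replicate block, that is unpaired, there were 64, and the cause was not tested. With a replicate block in DMSO and metcamifen only there were 211. That setting leaves the DMSO terms of the model as they were and changes the spread estimated over all 27 libraries. Leaving out 1 DMSO library or DMSO replicate number gave 148 to 386 calls. Without cyprosulfamide replicate 1, 2 or 3, DMSO cultures had 136, 281 and 153 raised and 298, 480 and 332 lowered loci. Without metcamifen replicate 1, 2 or 3, they had 128, 121 and 117 raised and 262, 226 and 237 lowered loci. The same 3 settings (no filter, unpaired, partial block) gave 1541, 53 and 185 calls under cyprosulfamide in place of 521. Leaving out a cyprosulfamide replicate gave 239 to 897. Under metcamifen unpaired libraries gave 1414 in place of 2740, and 1454 to 1814 on leaving out a metcamifen replicate. For 240 against 90 min in DMSO the 3 settings gave 1619, 173 and 490 in place of 1011. Leaving out a DMSO replicate number gave 425 to 595. The difference between metcamifen and DMSO gave 456 calls unpaired and 969 with the partial block (881 to 1150 on leaving out a replicate), and that between cyprosulfamide and DMSO gave 107 without the filter and 0 in the other settings run (0 to 0 on leaving out a replicate).

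Under the same 3 settings, DMSO raised loci also raised under cyprosulfamide numbered 112, 22 and 39 (34 to 102 on leaving out a replicate). Lowered loci also lowered numbered 263, 6 and 40 (49 to 142). The DMSO lists themselves held 297, 36 and 91 raised and 479, 28 and 120 lowered loci in the 3 settings. For metcamifen the raised loci also raised numbered 120, 28 and 48 (32 to 62), and the lowered loci raised there 122, 6 and 20 (19 to 59). Lowered loci also lowered under metcamifen numbered 8 unpaired and 26 with the partial block (17 to 46). Raised loci lowered under metcamifen numbered 24 without the filter, 0 unpaired and 7 in DESeq2 (2 to 10). All 4 loci named for DMSO kept direction and call in each setting that gave an adjusted p (DESeq2 gave none for LOC_Os04g54230 and LOC_Os04g54310), with log2 fold changes of 2.39 to 2.83, 2.19 to 2.50, -2.96 to -2.55 and -2.43 to -2.03 in the order named. At this depth 0.15% of loci under 1 CPM were called.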
